A study of Saccharomyces cerevisiae with 21 samples.

Results

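The comparison is of the uninduced STH1-AID RAP1-AID strain with WT, by mRNA-seq of Saccharomyces cerevisiae. Its members are the 3 STH1-AID RAP1-AID libraries given DMSO and the 3 WT libraries, 6 of the 21 libraries of the series, taken by their labels. The series measured cells before and after auxin (IAA) depletion of Sth1, of Rap1 or of both, with WT beside them. The STH1-AID RAP1-AID strain (FW7232) is MATa with his3D1, leu2D0, met15D0 and ura3D0. It has STH1 and RAP1 each fused to 3V5-IAA7 with a kanamycin marker, the plant F-box gene osTIR1 driven by the GPD1 promoter at LEU2, and RPB3 fused to 3xFLAG. The cells received the DMSO vehicle and no IAA. WT (FVW7228) is of the same BY4741 background, carries the RPB3 tag alone and was untreated. All cultures grew in YPD at 30 °C, and S. pombe cells were added as a spike-in before RNA extraction. Both degron tags, osTIR1, the construct at LEU2 and DMSO differ from WT together, so their parts cannot be told apart in this comparison. The labels call the replicates biological without saying how the cultures were separated. The p-values of the fits draw on the spread between libraries within the 7 groups of all 21 libraries.

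Sth1 is the ATPase of RSC, the essential chromatin remodeller that keeps many yeast promoters free of nucleosomes. Rap1 is an essential DNA-binding protein that sits upstream of ribosomal protein and glycolytic genes, and that also binds the telomere repeats, where it brings in the Sir silencing proteins. In the auxin-inducible degron (AID) system, IAA joins the tagged protein to TIR1, and the protein is then degraded, so a tagged strain without IAA is used as the undepleted state.

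The STH1-AID RAP1-AID DMSO libraries held 24959537 to 28513886 S. cerevisiae counts and the WT libraries 21396085 to 23692534. A gene reached 10 counts in 6033 to 6156 genes per library of the degron strain and in 5784 to 5842 genes per WT library. Replicate pairs differed beyond counting noise, with 7.48 to 69.2 times the chi-square expected from sampling alone, so every library was counted as a replicate. S. cerevisiae counts divided by S. pombe counts gave 18.1, 10.5 and 8.28 in STH1-AID RAP1-AID DMSO and 10.6, 17.5 and 14.3 in WT. These ranges overlapped (mean difference of the log2 ratio -0.25, exact permutation test, two-sided, p = 0.6, where 3 against 3 libraries cannot go below 0.1). This difference depended on single libraries, at -0.57 and -0.0086 without the first and the third degron library and -0.45 and -0.086 without the first and the second WT library. The second library of the degron strain stood apart. Over the genes called higher, its log2 level lay 0.59 above the mean of the first and the third degron library at the median. Some results that rest on it are also given without it.

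The tagged genes gave nearly the same counts in both strains. STH1 was at 317, 291 and 334 CPM (the counts of a gene scaled to a common library size with TMM, the trimmed mean of M values) in STH1-AID RAP1-AID DMSO and at 301, 320 and 320 CPM in WT, a log2 fold change of 0.00 ± 0.07 (SE). RAP1 differed by 0.13, RPB3 by 0.18 and HIS3 by 0.16 on the log2 scale, and none of these passed the test. A 3' tag leaves most of the gene in place, so these counts do not check the tags. LEU2 and URA3 had 0 counts in all 6 libraries, as genes deleted in leu2D0 and ura3D0 would. The genotype of the degron strain also lists a LEU2 marker with osTIR1, and why it gave no LEU2 counts was not tested. MET17, the gene deleted in met15D0, goes against its label: it had 3447, 3445 and 3573 counts in STH1-AID RAP1-AID DMSO and 7502, 7120 and 6963 in WT. The strain tagged on Sth1 alone had 0.0621 ± 0.0296 CPM of MET17, so the strains differ at this locus as well. PPN2, the gene next to RAP1 that encodes a polyphosphatase, was at 62.2 ± 2.41 CPM in STH1-AID RAP1-AID DMSO and 105 ± 8.0 CPM in WT (SD, n = 3 each), a log2 fold change of -0.75 below the size threshold for a call.

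Before any induction, the doubly tagged strain already differed from WT at many genes. Called genes had a Benjamini-Hochberg adjusted p under 0.05 in edgeR's quasi-likelihood test and a log2 fold change beyond 1 in either direction. Of 6254 genes tested, 326 were called higher and 107 lower with the S. pombe scaling (5.21% and 1.71% of all genes), and 396 higher and 113 lower with TMM (6.33% and 1.81%). The scalings shared 310 higher and 102 lower calls, and none went opposite ways between them. Over all genes the median was 0.01 with the spike-in and -0.02 with TMM. TMM sets the bulk of the genes near 0 by construction. The spike-in median rests on the count ratio to S. pombe, which depended on single libraries. These medians therefore do not show whether the bulk of the genes moved. The median SE was 0.31 with the spike-in and 0.09 with TMM, and values below are those of TMM unless stated. Without the second degron library the spike-in counts were 170 higher and 68 lower, and without the first 251 genes were lower. Leaving out the third gave 518 higher, and TMM without the second gave 239 higher.

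**Figure D1:**
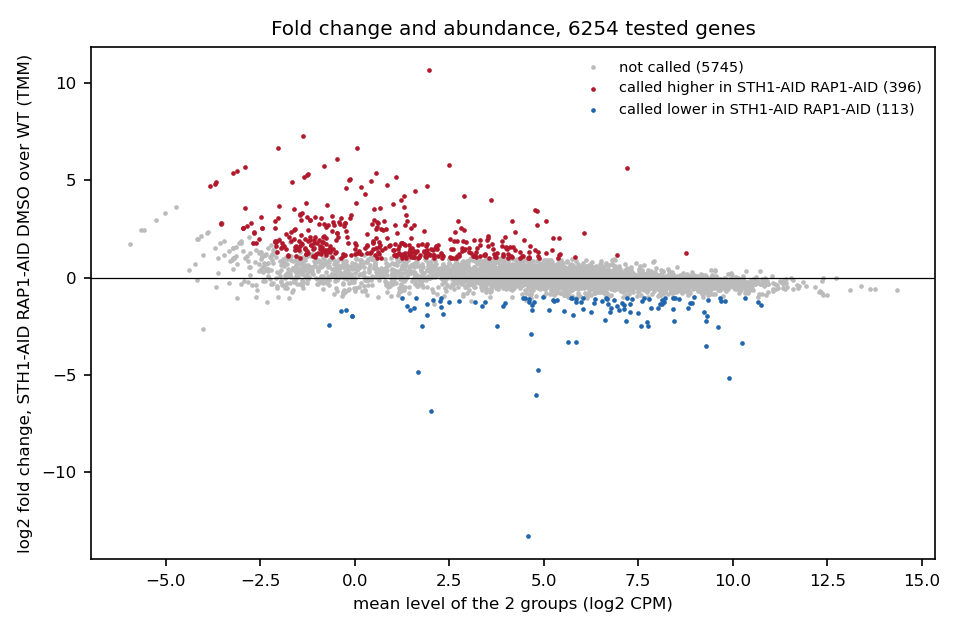
Fold change (log2, STH1-AID RAP1-AID DMSO over WT, TMM) of 6254 genes against their mean level in both groups (log2 CPM). Red points are the 396 genes called higher and blue points the 113 called lower; red points crowd at low levels and blue points spread to high levels.

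Higher calls sat among weakly expressed genes and lower calls were spread over all levels. When genes were put in 4 bins of like size by mean level over all libraries, the lowest bin of 1564 genes held 357 higher and 33 lower calls, with a median log2 fold change of 0.42. The highest bin held 2 higher and 35 lower calls, at a median of -0.20. In a bulk sample, more RNA of a silent gene in every cell and full expression in a few cells cannot be told apart. The plot of fold change against level shows where the higher and the lower calls lie.

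Most members of the phosphate (PHO) regulon, the genes that yeast switches on through the factor Pho4 when phosphate is scarce, fell. Pho4 binds CACGTG. The stretches below, from the RefSeq R64 genome and read 5′ to 3′ on the strand of the gene, are shown because they hold the copies of CACGTG (in capitals) in 5 of the genes that fell.
SPL2: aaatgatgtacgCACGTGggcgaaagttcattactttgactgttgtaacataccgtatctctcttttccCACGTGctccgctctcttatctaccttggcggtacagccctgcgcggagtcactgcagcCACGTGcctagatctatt
PHO84: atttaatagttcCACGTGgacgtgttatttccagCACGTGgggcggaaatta
VTC3: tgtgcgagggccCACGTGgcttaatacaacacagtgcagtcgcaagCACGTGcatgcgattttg
VTC4: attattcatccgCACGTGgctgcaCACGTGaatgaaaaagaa
PHO5: ccttggcactcaCACGTGggactagcacag
They lie on the minus strand at chrVIII:375114-375259 (SPL2), chrXIII:26197-26248 (PHO84), chrXVI:517312-517375 (VTC3), chrX:413495-413536 (VTC4) and chrII:431187-431216 (PHO5), and their last base is 14, 397, 294, 96 and 236 bases before the start codon in that order. SPL2 has a further copy outside its stretch. CACGTG reads the same on both strands. In the 600 bases before the start codon it was present for 16 of 18 PHO regulon genes tested (88.9%), for 26 of 113 genes called lower (23%), for 18 of 396 called higher (4.55%) and for 464 of all 6684 genes (6.94%). PHO3 and PHM8 were the list members without it. The 26 genes called lower include the PHO regulon genes with CACGTG that fell, such as SPL2, PHO84 and VTC3. The share of 23% is therefore not separate from that of the PHO regulon. A match is a description of the letters, not of binding.

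Of the 18 PHO regulon genes tested, 14 were called lower and 1 higher with either scaling, against 1.81% of all genes lower, and the median log2 fold change was -2.23 against -0.02 over all genes. PHO84, the high-affinity phosphate transporter of the plasma membrane, was at 35.6, 91.5 and 30.5 CPM in STH1-AID RAP1-AID DMSO and at 1953, 1859 and 1814 CPM in WT (log2 fold change -5.15 ± 0.36, adjusted p = 3.92e-09). SPL2, which acts on the low-affinity transporters, was at 0.782, 0.959 and 0.690 CPM against 58.8, 51.1 and 53.2 CPM in WT (-6.05 ± 0.22, adjusted p = 2.91e-13). Every library of the degron strain lay far below every WT library for both genes. PHO89, the sodium-coupled phosphate transporter, was at 1.94, 2.58 and 1.64 CPM against 42.1, 58.0 and 66.6 CPM in WT (-4.74 ± 0.28). PHM6, a phosphate-responsive gene of unknown role, was at 0.170, 0.270 and 0.182 CPM against 6.57, 5.19 and 6.63 CPM in WT (-4.84 ± 0.27).

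The enzymes and the sensor of the pathway fell as well. VTC3, a subunit of the polyphosphate polymerase of the vacuole, was at 97.6, 107 and 101 CPM in STH1-AID RAP1-AID DMSO and at 1118, 1156 and 1149 CPM in WT (-3.48 ± 0.07). The 3 other VTC genes of the list followed with smaller falls, VTC4 by 2.24, VTC1 by 2.22 and VTC2 by 1.05 on the log2 scale. Among the phosphatases, secreted PHO5 was at 9.11, 15.1 and 7.96 CPM against 149, 85.7 and 82.9 CPM in WT (-3.29 ± 0.24). Its subtelomeric relative PHO12 fell by 3.28 and the vacuolar PHO8 by 2.25. PHO81, the inhibitor of the Pho80-Pho85 kinase, fell by 2.20, and PHO86, which helps Pho84 leave the endoplasmic reticulum, by 1.34. The 3 libraries of each strain stayed apart for all of these genes.

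Not every list member was called lower, and the call of PHM8 was not stable. GDE1 differed by -0.21 on the log2 scale and was not called. PHO3, the constitutive phosphatase next to PHO5, was at 324 ± 19.2 CPM in STH1-AID RAP1-AID DMSO and 326 ± 57.5 CPM in WT (log2 fold change -0.01 ± 0.11). PHO11, another secreted phosphatase, lay 3355 bases from the right end of chromosome I and had overlapping libraries (-0.80 ± 0.39, adjusted p = 0.103). GIT1, the glycerophosphoinositol transporter, was the member called higher (1.13 ± 0.41). It rested on the second degron library at 12.1 CPM, since the others were at 3.26 and 3.45 CPM and WT at 3.70, 2.94 and 1.95 CPM, and GIT1 gave 0.22 without that library. PHO11 and PHO12 are near-identical copies, and their separate values are uncertain. PHM8, a phosphatase of lysophosphatidic acid, was called at -1.05 ± 0.36, and lost the call without the first WT library or without the first or the second degron library (PHM8 at -0.75, -0.79 and -1.08).

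The genes for Pho4, Pho2 and the Pho80-Pho85 kinase, added after their values were seen, were not called. PHO4 was at 43.5 ± 4.01 CPM in STH1-AID RAP1-AID DMSO and 76.2 ± 1.95 CPM in WT (-0.81 ± 0.07, adjusted p = 1.05e-07, below the size threshold). PHO2, its partner factor, differed by -0.21, PHO80 by 0.12 and PHO85 by -0.28. Of the low-affinity transporters, PHO87 was at 145 ± 5.94 CPM against 97.2 ± 1.83 CPM in WT (0.57 ± 0.05), while PHO90 and PHO91 differed by 0.07 and -0.25.

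**Figure D2:**
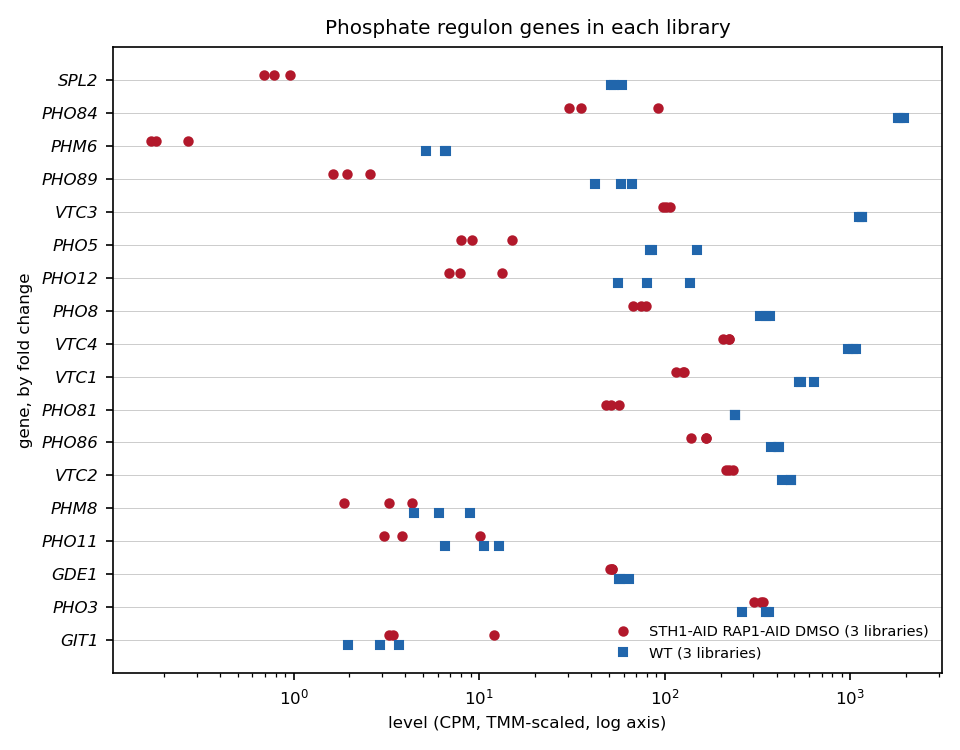
Level (CPM, TMM-scaled, log axis) of the 18 PHO regulon genes in each of the 3 STH1-AID RAP1-AID DMSO libraries (red circles) and the 3 WT libraries (blue squares), ordered by fold change. The circles lie left of the squares for most genes, by the widest margin for SPL2 and PHO84, and overlap them for PHO11, PHO3 and GIT1.

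LEU1, BAT1 and OAC1 of the branched-chain pathway and GDH1 of ammonium assimilation fell too. Leu3, the factor that governs leucine and part of the branched-chain genes, binds sites of CCGG, a short spacer and CCGG again. The stretches below are shown because 3 genes called lower hold such a site with a spacer of any 2 bases, given in capitals. The searched letters are the same on both strands and cannot overlap CACGTG.
LEU1: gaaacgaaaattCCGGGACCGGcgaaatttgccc
BAT1: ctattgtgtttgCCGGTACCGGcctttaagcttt
GDH1: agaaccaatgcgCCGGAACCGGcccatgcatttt
They lie at chrVII:478848-478881 on the minus strand (LEU1), chrVIII:517373-517406 on the plus strand (BAT1) and chrXV:1043425-1043458 on the minus strand (GDH1) of R64, and their last base is 196, 126 and 383 bases before the start codon in that order. The motif was rare, with 21 of 6684 genes (0.314%) holding it within 600 bases. Of 19 such genes tested, 3 were called lower and 1 higher (DDR2, 1.62), and their median log2 fold change was -0.48 against -0.02 over all genes.

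LEU1, the isomerase that follows Leu4 and Leu9 in leucine synthesis, was at 240, 217 and 232 CPM in STH1-AID RAP1-AID DMSO and at 885, 1418 and 1683 CPM in WT (-2.53 ± 0.15, adjusted p = 2.03e-10). BAT1, the mitochondrial branched-chain aminotransferase, was at 290, 258 and 273 CPM against 749, 939 and 1106 CPM in WT (-1.77 ± 0.11). OAC1, the mitochondrial carrier of oxaloacetate and isopropylmalate, was at 49.9, 72.3 and 43.7 CPM against 134, 162 and 198 CPM in WT (-1.57 ± 0.17). The first WT library was the lowest of the 3 for each of these genes, and still lay above every library of the degron strain. GDH1, the glutamate dehydrogenase that takes up ammonium, was at 198, 217 and 233 CPM against 1743, 2355 and 2527 CPM in WT (-3.35 ± 0.13, adjusted p = 2.94e-13). Of 14 tested genes of the branched-chain list, these 3 (LEU1, BAT1 and OAC1) were called lower, against 1.81% of all genes, and 12 had an adjusted p under 0.05 in the lower direction, against 24.5% of all genes. LEU4 differed by -0.74, ILV2 by -0.57 and ILV5 by -0.50, and the factor gene LEU3 by 0.35. The construct with the LEU marker is absent from WT, so the marker and the tags cannot be told apart here.

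A pair of short features went nearly silent in the degron strain. YCL021W-A, on the LEU2 side of chromosome III, had 0, 0 and 0 counts in STH1-AID RAP1-AID DMSO and 1321, 818 and 855 in WT, at least 474-fold lower when 3 counts per library are taken as the floor. YEL010W, an uncharacterised frame near GCN4, had 0, 5 and 1 counts against 224, 139 and 144 in WT (-6.83 ± 0.52). YEL009C-A, on the opposite strand and overlapping YEL010W, was chosen after its values were seen and went the other way, with 31, 81 and 42 counts against 5, 3 and 3 in WT (3.23 ± 0.47). Such floors cover counting error only, as do the exact intervals given below.

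Genes close to chromosome ends were often called higher. Rap1 binds the TG-rich repeats that close each chromosome, and the last 100 bases of the right arm of chromosome VI (chrVI:270062-270161, plus strand of R64), beyond YFR057W, are shown with a core Rap1 motif, CACCC, any 2 bases and ACA, in capitals, here as the other strand of the motif.
Right end of chromosome VI: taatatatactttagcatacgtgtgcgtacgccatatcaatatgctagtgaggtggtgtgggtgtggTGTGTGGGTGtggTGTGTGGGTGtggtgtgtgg
The motif was searched on both strands. It was in the last 300 bases of 21 of 32 chromosome ends (65.6%). Within 600 bases before start codons it was present for 10 of 396 genes called higher (2.53%) and 167 of all 6684 genes (2.5%).

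Of 256 genes listed within 15 kb of an end, 155 passed the filter on low counts, 98 of them were called higher and 3 lower, and 89 and 2 with the spike-in scaling. Without the second degron library, 79 were called higher with TMM and 67 with the spike-in. The share called higher was 79.5% of 39 genes within 5 kb, against 6.33% of all genes, then 33 of 58 genes at 5 to 10 kb, 34 of 58 at 10 to 15 kb, 18 of 60 at 15 to 20 kb and 21 of 141 at 20 to 30 kb. The median log2 fold change followed the same order, with 2.46, 1.64, 1.28, 0.44 and 0.21, and was 0.01 at 30 to 50 kb. Genes within 15 kb made up 24.7% of all genes called higher, so most of the rises lay elsewhere. The 3 genes called lower were PHO89, PHO12 and YHR214C-C. A silent gene could pass the filter through the libraries of a tagged strain alone, so these shares describe the genes that passed.

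**Figure D3:**
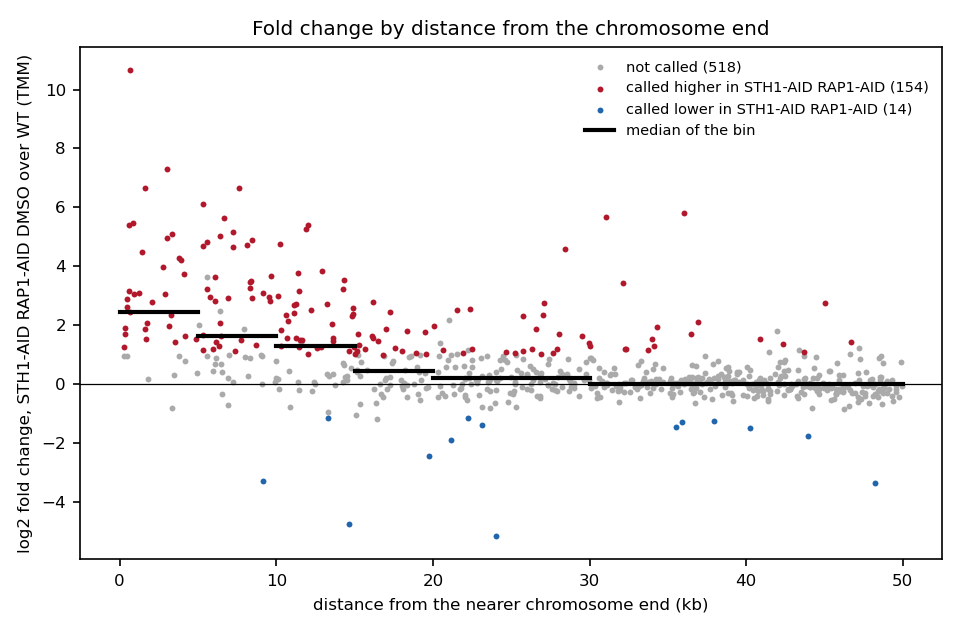
Fold change (log2, STH1-AID RAP1-AID DMSO over WT, TMM) against distance from the nearer chromosome end (kb) for the tested genes within 50 kb, with bars at the median of each bin. Of the points, 154 are called higher (red), 14 lower (blue) and 518 not called (grey), and the bars step down to 0.01 by 30 to 50 kb.

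YFR057W, an uncharacterised gene 645 bases from the right end of chromosome VI, had 153, 474 and 109 counts in STH1-AID RAP1-AID DMSO and 0, 0 and 0 in WT, at least 54.3-fold higher. IMD2, a subtelomeric gene for IMP dehydrogenase and thus guanine nucleotide synthesis, was at 348, 246 and 266 CPM against 7.77, 3.72 and 5.86 CPM in WT (5.63 ± 0.30, adjusted p = 6.94e-11). Its paralogues away from the ends were not called, with IMD3 at 0.33 and IMD4 at 0.42. AAD15, a putative aryl-alcohol dehydrogenase at 1646 bases from the left end of chromosome XV, had 193 counts summed over the 3 degron libraries and 1 over the 3 WT libraries, a rate ratio of 134 (95% exact interval 23.8 to 5335). SEO1, a putative permease 7234 bases from the left end of chromosome I, gave 199 and 5 counts, a ratio of 27.7 (11.7 to 86.3). COS4, of a family of subtelomeric membrane proteins, gave 156 and 3 counts, a ratio of 36.2 (12.2 to 178). The exact intervals, here and below, use summed counts and leave out the spread between libraries, so they are too narrow. The second degron library was the highest for YFR057W, AAD15, SEO1 and COS4, but the groups stayed apart without it. In the repeated families, 12 of 14 tested PAU genes and 7 of 12 COS genes were called higher. This compares with 6.33% of all genes and with 98 of 155 tested genes within 15 kb of an end. The near-identical copies in these families make the value of any single member uncertain.

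The silent mating-type cassettes are also kept off by Sir proteins and Rap1. Both strains carried the a-type markers that the MATa label calls for: MFA1, MFA2, STE2, STE6, BAR1 and AGA2 were at 23.8 to 524 CPM in STH1-AID RAP1-AID DMSO and 23.9 to 479 CPM in WT, and none of the 7 a-specific genes was called by edgeR or DESeq2 (4 had an unadjusted p under 0.05, 3 higher and 1 lower). Alpha-specific RNA was low but higher in the degron strain. STE3, the receptor for a-factor, was at 2.75, 7.79 and 2.51 CPM in STH1-AID RAP1-AID DMSO and at 0.278, 0.0459 and 0.514 CPM in WT (3.99 ± 0.64, adjusted p = 7.56e-05). MF(ALPHA)1, the main alpha-factor gene, gave 68 counts over the 3 degron libraries and 1 over the WT libraries, a ratio of 47.4 (8.22 to 1897). MF(ALPHA)2 was called with TMM only, and SAG1, the alpha-agglutinin gene, was not called (0.61 ± 0.17). MATALPHA2, chosen after its values were seen, had 65, 138 and 61 counts against 28, 23 and 29 in WT (1.17 ± 0.25), and most of its sequence is shared with the silent copies, so its value is uncertain. HMRA1, at the silent a cassette, differed by 0.20 ± 0.09 and was not called. MATa cells also express the same gene from the mating-type locus, so this value does not tell whether the silent cassette stayed off.

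Lists of thiamine, sugar and meiosis genes held many higher calls, to be read against 6.33% of all genes and 22.8% of the 1564 genes in the lowest bin of level. Some members also lie within 15 kb of a chromosome end, where 98 of 155 tested genes were called higher. In the sugar list these include MAL12, MAL31, MAL32, MAL33, MPH2 and MPH3. In the thiamine list they include SNZ2, SNZ3, SNO2, SNO3, THI5 and THI12. Whether these lists rose apart from their place near the ends was not tested. No gene of the thiamine, sugar and meiosis lists was called lower by edgeR or DESeq2, while 1 sugar gene and 1 meiosis gene were lower at an unadjusted p under 0.05. Of 21 thiamine genes, 12 rose (median 1.53). SNZ3, a subtelomeric gene for a vitamin B6 synthase subunit, was at 2.69, 5.34 and 3.27 CPM in STH1-AID RAP1-AID DMSO and at 0.278, 0.321 and 0.205 CPM in WT (3.78 ± 0.37). THI4, which makes the thiazole moiety of thiamine and lies away from the ends, was at 3.22 ± 0.518 CPM against 0.968 ± 0.427 CPM in WT (1.73 ± 0.23). THI5, THI11, THI12 and THI13 are near-identical subtelomeric genes, and their separate values are uncertain. Of 17 galactose, sucrose and maltose genes, 10 rose (median 1.12), with GAL2, the galactose permease, at 0.899 ± 0.0401 CPM in STH1-AID RAP1-AID DMSO and 0.127 ± 0.0510 CPM in WT (2.77 ± 0.44). GAL4, the activator of the GAL genes, was at 10.7, 14.4 and 11.0 CPM against 4.30, 2.48 and 3.34 CPM in WT (1.84 ± 0.16). Of 26 meiosis and sporulation genes, 11 rose (median 0.99), among them SPS100, a spore wall protein (2.84 ± 0.36), and REC8, the meiotic cohesin subunit (2.70 ± 0.55). Without the second degron library, 7 meiosis genes and 6 sugar genes were called.

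**Figure D4:**
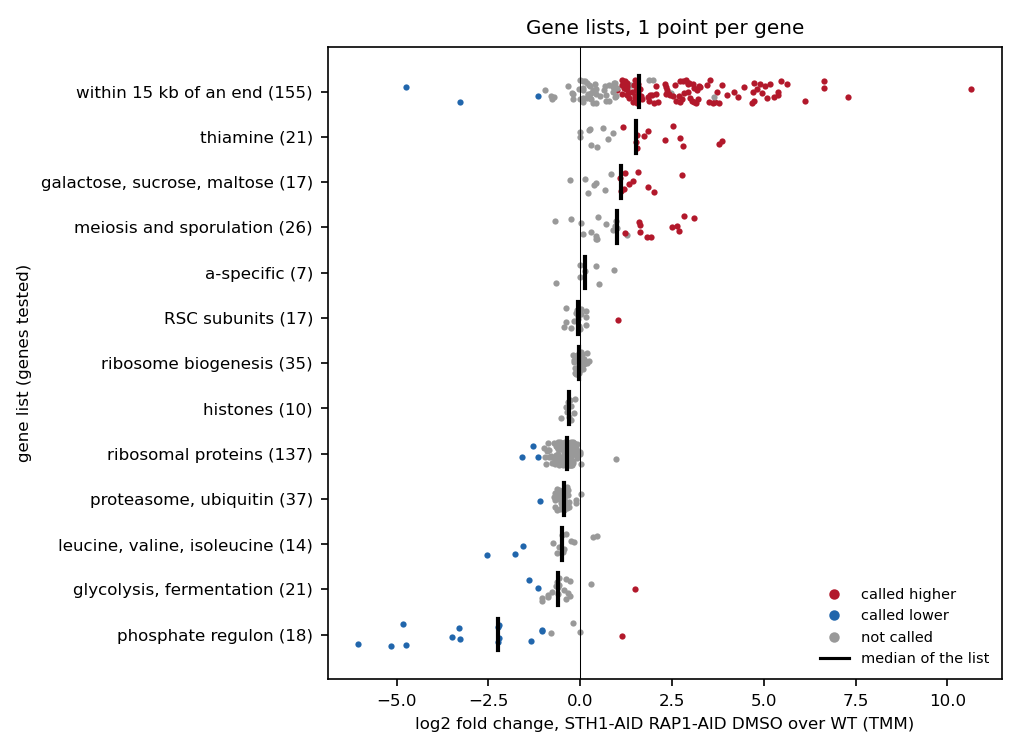
Fold change (log2, STH1-AID RAP1-AID DMSO over WT, TMM) of each tested gene in 13 lists, with the number tested in brackets, called genes in colour and the list median as a black bar. The medians run from 1.61 for genes within 15 kb of an end to -2.23 for the PHO regulon.

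Some of the genes that are normally kept off by oxygen rose. DAN1, a cell wall mannoprotein made in anaerobic cells, was at 16.7, 8.21 and 7.99 CPM in STH1-AID RAP1-AID DMSO and at 0.231, 0.184 and 0.154 CPM in WT (5.81 ± 0.59, adjusted p = 3.75e-07). ANB1, the hypoxic form of translation factor eIF5A, was at 16.8, 12.7 and 6.18 CPM against 3.52, 0.826 and 1.80 CPM in WT (2.53 ± 0.46). The mannoprotein genes TIR2 and TIR4 rose by 2.12 and 2.02, and AAC3, the hypoxic ADP/ATP carrier, by 1.22. In all, 7 of 28 ergosterol and anaerobic genes were called higher and 1 lower, ERG3, the sterol desaturase (-1.02), against 6.33% and 1.81% of all genes. The list did not move one way, since all 3 degron libraries lay above all 3 WT libraries for 10 of its genes and below them for another 10. Of 22 iron regulon genes, FIT1, a cell wall siderophore protein (2.36 ± 0.20), and FRE5, a putative ferric reductase (1.04 ± 0.21), were called higher, a share near the 6.33% of all genes. FRE1, the main surface ferric reductase, was called lower with TMM only (-1.24 ± 0.37), with 201, 216 and 99.9 CPM in STH1-AID RAP1-AID DMSO and 652, 154 and 418 CPM in WT. FRE1 lost the call without the first WT library (-0.73) or without the third degron library (-0.97).

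Strongly expressed groups lay slightly lower. The highest bin of level as a whole had a median log2 fold change of -0.20, so part of this goes with level. Of 137 ribosomal protein genes, edgeR called 3 lower and none higher (1 gene was higher where p was not adjusted), and DESeq2 called 3 lower and 1 higher. All 3 degron libraries lay below all 3 WT libraries for 125 of them, against 23.8% of all genes. Per library, the median log2 count of the ribosomal protein genes exceeded the median of all genes by 3.85, 3.72 and 3.65 in STH1-AID RAP1-AID DMSO and by 4.01, 4.14 and 4.19 in WT. These values, which no scaling changes, did not overlap, and differed by -0.37 (exact permutation test, two-sided, p = 0.1, the smallest p that 3 against 3 libraries allow). RPL9B had the largest fall, with 256, 201 and 223 CPM against 694, 660 and 673 CPM in WT (-1.58 ± 0.08), followed by RPS17B (-1.30) and RPL21B (-1.14). These genes have close paralogues, and RPS17B and RPL21B have introns that unspliced alignment leaves partly uncounted. Without an intron, 48 ribosomal protein genes gave a difference of -0.33.

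Protein-quality and sugar-burning genes were in the same range. Of 37 proteasome and ubiquitin genes, 34 had an adjusted p under 0.05 in the lower direction, against 24.5% of all genes, and the median was -0.45. Polyubiquitin gene UBI4 alone passed the size threshold (-1.09 ± 0.14). Of 23 heat shock chaperones, HSP78, HSP104 and CPR6 were called lower (-1.31, -1.02 and -1.01), against 1.81% of all genes. Of 21 glycolytic and fermentation genes, TDH2, a form of glyceraldehyde-3-phosphate dehydrogenase, was at 1087, 957 and 783 CPM against 3684, 1597 and 2197 CPM in WT (-1.40 ± 0.23). GLK1, a glucokinase, was called lower as well, with overlapping libraries (-1.16 ± 0.37), and GLK1 lost the call without the first WT library (-0.75). PDC6, a minor pyruvate decarboxylase, was called higher with TMM only (1.49 ± 0.33). Histones (10 genes, median -0.29) and ribosome biogenesis factors (35 genes, median -0.04) had no member called by edgeR or DESeq2. At an unadjusted p under 0.05, 10 of 10 histone genes were lower, and 2 ribosome biogenesis genes higher.

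Nitrogen genes were called in both directions. Among the transporters and catabolic enzymes that are used when good nitrogen sources run out, GAP1, the general amino acid permease, was at 33.9 ± 6.45 CPM in STH1-AID RAP1-AID DMSO and 117 ± 17.1 CPM in WT (-1.79 ± 0.16). DUR12, urea amidolyase, fell by 1.82, CAR2, ornithine transaminase, by 1.68, CAR1, arginase, by 1.47, and the ammonium permeases MEP1 and MEP3 by 1.27 and 1.24. The allantoin genes DAL1, DAL2, DAL4 and DAL7 were higher, DAL2 by 1.71. In all, 4 of 22 nitrogen genes were called higher and 8 lower, against 6.33% and 1.81% of all genes. Of 27 sulphur amino acid genes, MET2, SAM2 and MET17 were called lower, against 1.81%, and MET17 is a marker locus of these strains.

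Genes for the tagged complexes themselves changed little. Among 17 RSC subunits, HTL1 was called higher with TMM only (1.02 ± 0.20), and the others lay between -0.45 and the threshold. None of 13 Rap1 partners and silencing factors was called in either direction, with a range of -0.34 to 0.34, and 3 were higher and 2 lower at an unadjusted p under 0.05 in edgeR. None of the 5 other general regulatory factors was called, and 1 was lower at an unadjusted p under 0.05. DESeq2 called no gene of these last lists.

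Against the singly tagged strains, which also carry osTIR1 and received DMSO, the doubly tagged strain had fewer calls against RAP1-AID than against STH1-AID. STH1-AID had almost no MET17 reads, so the contrast with it holds a difference at that locus besides the Rap1 tag, and their parts cannot be told apart. With TMM, 58 genes were called higher and 10 lower than in RAP1-AID DMSO (0.927% and 0.16%), and 214 higher and 85 lower than in STH1-AID DMSO (3.42% and 1.36%). These splits depend on the scaling, since the spike-in moved the median of all genes by -0.51 against RAP1-AID and -0.11 against STH1-AID and gave 18 higher and 72 lower (0.288% and 1.15%), and 135 higher and 111 lower (2.16% and 1.77%). The calls against RAP1-AID also depend on single libraries: 28 genes were lower without the second degron library, and 33 and 37 higher without the third and the first RAP1-AID library. Against STH1-AID, 120 were higher without the second degron library. The differences of the double and single strains from WT share the WT libraries, so only levels are set side by side.

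YFR057W was at 7.79 ± 5.59 CPM in the double strain, 8.80 ± 1.20 CPM in RAP1-AID, and had 0 counts in STH1-AID and WT. IMD2 was at 287 ± 54.2, 207 ± 8.48, 18.3 ± 6.87 and 5.78 ± 2.03 CPM in the double strain, RAP1-AID, STH1-AID and WT (SD, n = 3 each). STE3 was at 4.35 ± 2.98 CPM in the double strain, against 3.65 ± 0.295 CPM in RAP1-AID and 0.529 ± 0.378 CPM in STH1-AID. For these genes the double strain and RAP1-AID did not differ past the threshold, with log2 differences of -0.17 ± 0.37, 0.47 ± 0.23 and 0.26 ± 0.43, while all 3 genes were called higher than in STH1-AID. RPL9B was at 227 ± 27.7, 299 ± 18.3, 591 ± 14.7 and 676 ± 17.0 CPM in the same order of strains.

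DAN1 had another order, with 11.0 ± 4.94 CPM in the double strain, 0.423 ± 0.182 CPM in RAP1-AID and 3.49 ± 1.55 CPM in STH1-AID. The double strain was higher than RAP1-AID by 4.67 ± 0.49 (adjusted p = 6.63e-06) and than STH1-AID by 1.65 ± 0.39 (adjusted p = 0.00325). Also called higher than in RAP1-AID were LSO1, a small ribosome-associated protein, by 3.23 ± 0.32 and FIT3 by 2.85 ± 0.25, with FIT3 at 302 ± 81.2 CPM in the double strain, 42.0 ± 7.19 CPM in RAP1-AID and 170 ± 61.5 CPM in WT. Of the genes called lower than in RAP1-AID, HFM1, a meiotic helicase, differed by -2.27, TPO2, a polyamine exporter, by -1.85 and WSC4, a cell wall sensor relative, by -1.81.

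PHO84 was lower than in WT in every tagged strain, but to unlike degrees. It was at 52.5 ± 33.9 CPM in the double strain, 68.2 ± 1.24 CPM in RAP1-AID, 842 ± 106 CPM in STH1-AID and 1875 ± 71.1 CPM in WT. The difference between the double strain and RAP1-AID was -0.37 ± 0.31 (not called), and between the double strain and STH1-AID -4.00 ± 0.34 (adjusted p = 9.28e-08). LEU1 was at 230 ± 11.9 CPM in the double strain, 241 ± 1.81 CPM in RAP1-AID, 213 ± 10.3 CPM in STH1-AID and 1329 ± 407 CPM in WT, and the double strain differed from neither single strain past the test. GDH1 was at 216 ± 17.5 CPM in the double strain, below 458 ± 25.7 CPM in RAP1-AID (-1.09 ± 0.12, called) and 594 ± 12.4 CPM in STH1-AID (-1.46 ± 0.12, called), with WT at 2208 ± 412 CPM.

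**Figure D5:**
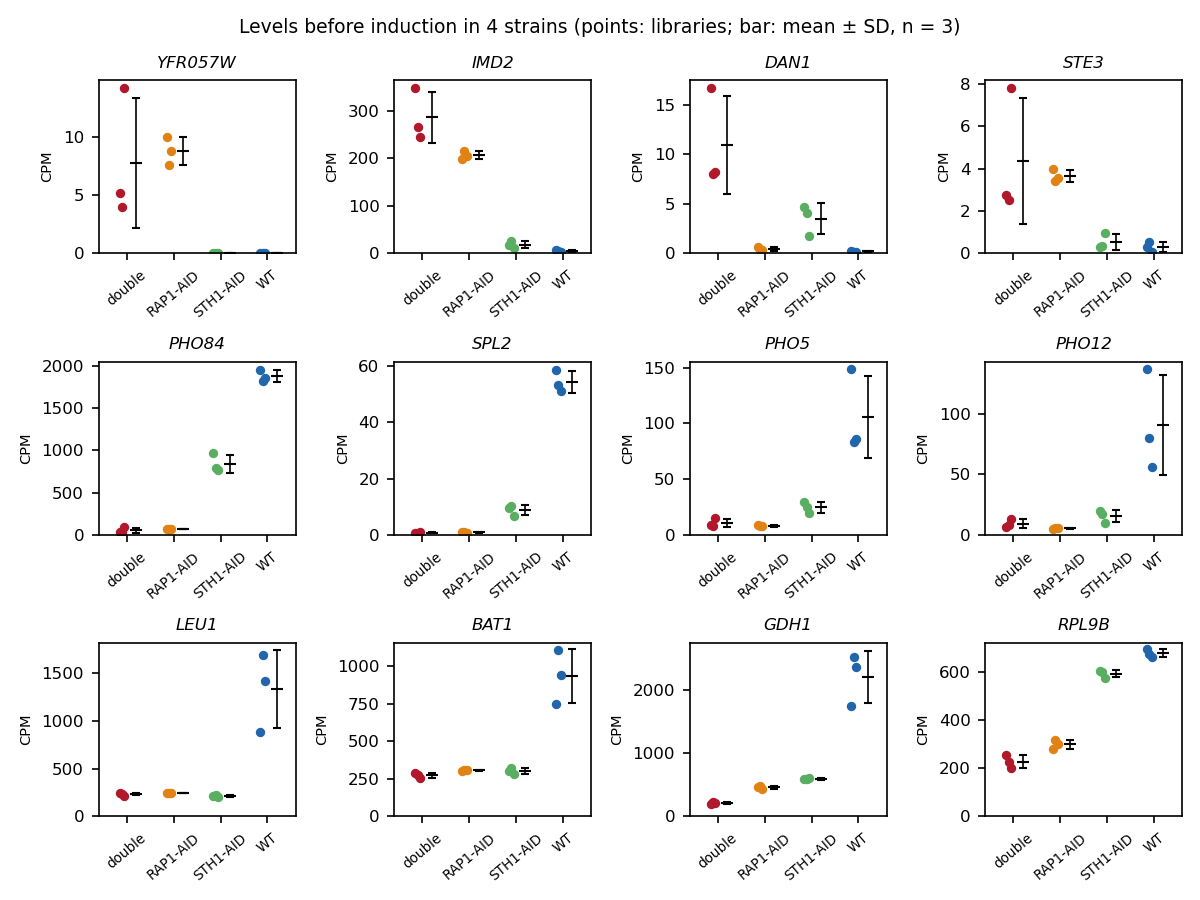
Levels (CPM, TMM-scaled, linear axes from 0) of 12 genes in the STH1-AID RAP1-AID DMSO strain (marked double), RAP1-AID DMSO, STH1-AID DMSO and WT, with points for libraries and a bar for the mean ± SD (n = 3). YFR057W, IMD2 and STE3 are high in the double strain and RAP1-AID, PHO84 is low in both, and LEU1 and BAT1 are low in all 3 tagged strains.

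The test of the difference between the double strain and the sum of the single tags, double minus RAP1-AID minus STH1-AID plus WT, called 34 genes higher and 29 lower of 6254 (0.544% and 0.464%), and 13 higher and 50 lower with the spike-in (0.208% and 0.799%), which moved the median by -0.63. A positive value means that the double strain lay above that sum. The near absence of MET17 reads in STH1-AID enters the sum as well. Both single strains carry osTIR1 and the construct at LEU2 and received DMSO, so the sum counts these shared differences from WT 2 times, and a gene equally low in all 3 tagged strains lies above it by construction. LEU1 gave 2.57 ± 0.20 (adjusted p = 2.62e-07), BAT1 1.47 ± 0.15 and OAC1 1.496 ± 0.24, and none of these genes differed past the test between the double strain and either single strain. Of the PHO genes, PHO12 gave 3.30 ± 0.46, SPL2 2.54 ± 0.33, PHO5 2.49 ± 0.33, PHO89 2.44 ± 0.40 and VTC3 1.12 ± 0.09, while PHO84 was not called (0.78 ± 0.44, adjusted p = 0.397). WSC4 gave -2.27 ± 0.34 and GAL4 -1.02 ± 0.22. Without the second degron library, 52 genes were called lower in this test.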

How the data were processed

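Raw counts per gene were deposited by the authors for S. cerevisiae (R64) and the S. pombe spike-in (ASM294v2). The kit was stranded, reads were trimmed with cutadapt 1.9.1 and aligned without splicing with BWA 0.5.9-r16 per the submitters' processing notes, and unique alignments were counted per strand (featureCounts, Subread 1.5.1). Genes of many copies are therefore uncertain. Fits were made with edgeR 4.0.16 (R 4.3.3) over all 21 libraries in 7 groups, glmQLFit and glmQLFTest, after its filter on low counts, with S. pombe size factors or TMM. Log2 fold changes are those fits' values. The SE given with them is the absolute log2 fold change divided by the square root of the F value of the test. It was derived from the test and not estimated on its own. Calls needed an adjusted p (Benjamini-Hochberg) below 0.05 together with a log2 fold change beyond 1 either way. DESeq2 1.42.0, no filter, fewer libraries, a replicate block and each library left out were tried as alternatives. The fits were tested on simulated counts. Gene names and coordinates were matched for 6008 of 6692 genes to the RefSeq annotation. No per-sample column was left out. Members and gene lists were chosen with earlier results of these data known. Named genes were the tagged and marker genes with their neighbours, the 10 largest changes in each direction called under both scalings with separate libraries and 50 or more counts, up to 3 called genes per list and direction, and up to 5 per contrast with a singly tagged strain. Other list members are named as examples. The regulators of the PHO genes, LEU3, MATALPHA2, HMRA1, YEL009C-A, OPI3, MOG1, NNR2, YHB1 and DDR48 were chosen after their values were seen.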

Additional observations from a re-analysis of the deposited data

Results flagged for a closer look

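In the test of the double strain against the sum of the single tags (STH1-AID RAP1-AID DMSO minus RAP1-AID DMSO minus STH1-AID DMSO plus WT, TMM, edgeR quasi-likelihood test), the differences of the single strains from WT did not add up to that of the double strain for 34 genes in the higher and 29 in the lower direction. That sum counts osTIR1, the construct at LEU2 and DMSO, which both single strains share, 2 times, so genes equally low in all 3 tagged strains, such as LEU1, lie above it by construction. Of the named genes, the PHO genes PHO12 (3.30), SPL2 (2.54), PHO5 (2.49), PHO89 (2.44) and VTC3 (1.12) lay above the sum on the log2 scale. So did the leucine genes LEU1 (2.57), OAC1 (1.496) and BAT1 (1.47). The iron genes TIS11 (3.29), FIT2 (3.27), FIT3 (2.72), FRE5 (2.65) and FRE1 (1.97) formed another group above it. TIS11, which encodes a protein that degrades mRNAs of iron-using proteins, was at 21.6, 17.4 and 18.8 CPM in the double strain, with 3.70 ± 0.989 CPM in RAP1-AID, 12.9 ± 2.64 CPM in STH1-AID, and 49.6, 9.64 and 13.7 CPM in WT. FIT2 was at 123 ± 30.1 CPM in the double strain, 17.7 ± 3.84 CPM in RAP1-AID, 71.0 ± 9.76 CPM in STH1-AID and 99.1 ± 42.2 CPM in WT. Among these genes, the first WT library was the highest for TIS11 and FRE1.

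MET17 (12.06) and YEL010W (10.70) had the largest values, and both rest on strains with almost no reads, so these fitted values depend on the prior count: MET17 was at 0.0621 ± 0.0296 CPM in STH1-AID, and YEL010W had 0 counts there. MET2, homoserine acetyltransferase, gave 1.15. Below the sum were WSC4 (-2.27), STP4 (-1.84), RGS2 (-1.75), MGA1 (-1.71), ADE17 (-1.71), TPO2 (-1.51) and GAL4 (-1.02). WSC4 was at 6.46 ± 1.51 CPM in the double strain, 22.6 ± 2.98 CPM in RAP1-AID, 9.78 ± 0.959 CPM in STH1-AID and 7.08 ± 3.20 CPM in WT, so its high level in RAP1-AID was not seen in the double strain.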

How the results depend on the processing

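No called value of a named gene changed sign under the alternatives run for it. DESeq2 and the fit without a filter on low counts kept each count of calls within 1.5 times. With the 6 libraries alone, the spike-in fit of the double strain against WT called 163 genes higher and 50 lower. Replicate numbers did not pair the samples (same-number correlations of -0.29, -0.19 and -0.18). The replicate block gave 105 higher and 13 lower with the spike-in, 192 higher with TMM, 30 higher against RAP1-AID, 113 higher against STH1-AID, and 20 higher and 18 lower against the sum of the single tags. The spike-in scaling turned the balance of calls to mostly lower against RAP1-AID (18 higher and 72 lower) and against the sum of the single tags (13 higher and 50 lower), and called 135 higher than in STH1-AID. Leaving out each library gave 170 to 518 higher and 68 to 251 lower (spike-in, against WT), 239 to 467 higher (TMM), 33 to 74 higher and 8 to 28 lower (against RAP1-AID), 120 to 277 higher (against STH1-AID) and 20 to 52 lower (against the sum). The cause was not tested. Depth limits genes near the floor of 3 counts, 0.0899 to 0.109 CPM in the double strain and 0.138 to 0.154 CPM in WT.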

Other observations

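Some genes outside the lists had large falls and were chosen after their values were seen. NNR2, a repair enzyme for damaged NAD(P)H, was at 5.30, 4.53 and 7.99 CPM in STH1-AID RAP1-AID DMSO and at 50.6, 43.2 and 39.5 CPM in WT (log2 fold change -2.91 ± 0.17). MOG1, a nuclear import factor, was at 3.43, 5.88 and 2.94 CPM against 26.4, 20.5 and 22.7 CPM in WT (-2.49 ± 0.18). OPI3, the methyltransferase of phosphatidylcholine synthesis, lies beside MOG1 on the other strand and was at 8.94, 16.4 and 11.7 CPM against 47.9, 35.5 and 34.5 CPM in WT (-1.66 ± 0.17). NNR2, MOG1 and OPI3 were at 6.46 ± 0.578, 4.81 ± 0.562 and 13.0 ± 0.526 CPM in RAP1-AID and at 38.6 ± 1.04, 17.9 ± 0.819 and 33.7 ± 1.11 CPM in STH1-AID.

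DDR48, a stress-responsive gene, was at 70.3, 59.3 and 68.8 CPM in STH1-AID RAP1-AID DMSO and at 494, 325 and 289 CPM in WT (-2.48 ± 0.14), and no library overlapped. YHB1, the flavohaemoglobin that detoxifies nitric oxide, was at 221, 398 and 168 CPM against 796, 1147 and 1104 CPM in WT (-1.95 ± 0.26). Of 17 DNA damage and nucleotide genes, the near-identical subtelomeric DDI2 and DDI3 were called higher (3.18 and 2.95), against 6.33% of all genes. Of 40 general stress genes, 7 were called higher and 4 lower, against 6.33% and 1.81%. No gene of the 11 tested in the mitochondrial genome was called by edgeR or DESeq2 (2 were higher at an unadjusted p under 0.05).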
